A study of Homo sapiens with 6 samples.

Results

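SERPINB3, SERPINB4, CASP14 and LY6D are 4 of the 62710 genes counted in cultured MHCC97-H cells, a human hepatocellular carcinoma line. They were chosen by their levels in the melatonin libraries, where each was several times lower than in untreated cells, and because all are best known from squamous epithelium. Polyadenylated RNA was sequenced from cells given 40 µM chloroquine, from cells given 0.2 mM melatonin and from cells given neither agent, with 2 libraries in each of the 3 groups. All libraries carry a time of 16 h and a wild-type genotype, and no solvent-only group is named. The design text presents chloroquine as blocking autophagy and melatonin as blocking stress of the endoplasmic reticulum. Library totals ran from 15993730 to 23311452 counts, and all 4 genes passed the filter on low counts. The labels give no separate culture to the libraries of a group, so the spread between them, and every p-value made from it, may be technical.

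Stratified squamous epithelium, as in the skin and the lining of the mouth, renews itself from a basal layer whose cells flatten, harden and are shed. SERPINB3 and SERPINB4, long known as squamous cell carcinoma antigens, are serpins that stay inside the cell. A serpin offers its exposed reactive loop to a protease as bait and is then locked to it. SERPINB3 is known to inhibit cysteine proteases such as cathepsins L, K and S, and SERPINB4 serine proteases such as cathepsin G and mast cell chymase. CASP14 is a caspase of cornifying keratinocytes that helps to break down filaggrin, and is not known to take part in apoptosis. LY6D is a small protein held to the cell surface by a lipid anchor, used as a marker of keratinocytes and of squamous carcinoma. In liver, SERPINB3 is known as a protein that hepatocellular carcinoma can make while normal hepatocytes hardly do.

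With chloroquine the 4 genes parted. SERPINB3 and SERPINB4 were 1.72-fold and 1.61-fold higher than in untreated cells, LY6D was 0.464-fold the untreated level, and CASP14 had 0.01 ± 0.12 (SE) on the log2 scale. With melatonin, the comparison that chose them, all 4 were low, between 0.153-fold and 0.199-fold the untreated level. The rule of choice did not use the chloroquine libraries, but earlier results of these data were known when the genes were chosen. Both comparisons also use the same untreated libraries and are therefore not independent. An untreated level that is too high by error would make a fall larger in both. Levels below are CPM, which are counts scaled to one library size with TMM factors that even out differences in composition.

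**Figure D1:**
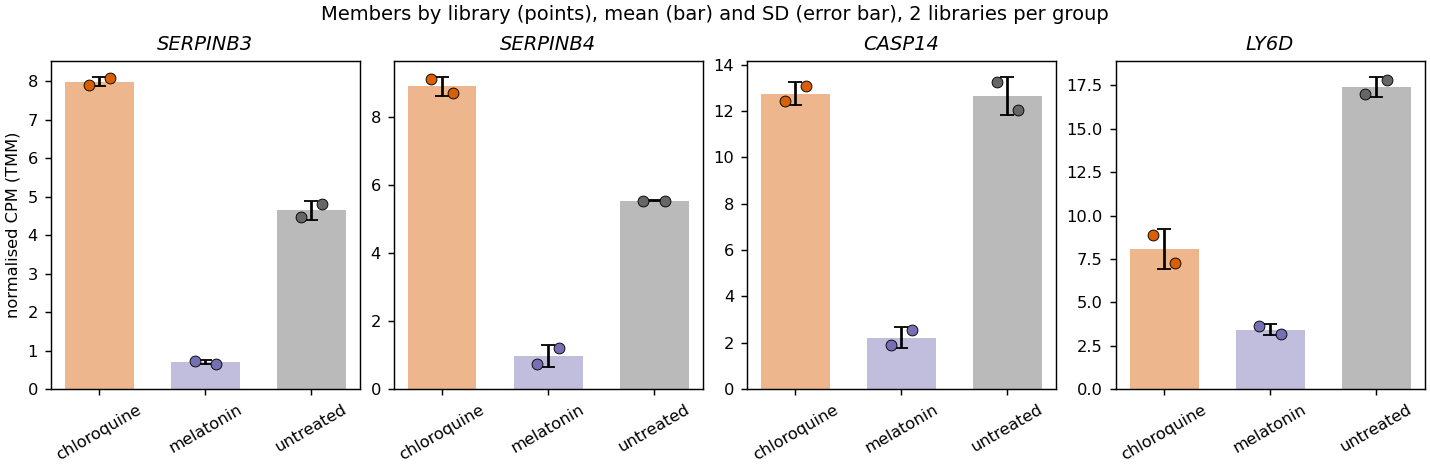
Level of each gene in normalised CPM (vertical axes, starting at 0 and differing between panels) for chloroquine, melatonin and untreated cells. Points are libraries, bars are group means and error bars the SD of 2 libraries; SERPINB3 and SERPINB4 averaged 7.98 and 8.89 CPM with chloroquine, above their untreated means of 4.64 and 5.53 CPM, whereas LY6D averaged 8.07 CPM with chloroquine and 17.4 CPM in untreated cells.

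SERPINB3 (ENSG00000057149) lies at chr18:63655197-63661963 of GRCh38 on the minus strand, and SERPINB4 (ENSG00000206073) at chr18:63637259-63644298, also on the minus strand, 10899 bases away. The genes are close copies of each other, so the counting could give reads of one to the other. Their coding sequences (transcripts SERPINB3-201 and SERPINB4-201 of GENCODE release 29) differed at 56 of 1173 bases, an identity of 95.2%. Of all stretches of 50 bases of SERPINB3-201, 23.9% were also found in a SERPINB4 transcript, and the share was 10.5% at 75 bases, 3.40% at 100 bases and 0% at 150 bases. The sources used here give neither the read length nor how reads that map to more than 1 place were treated. The stretch of 150 coding bases that follows is shown because it encodes the part of the protein around the reactive loop and is where the copies are least alike, with 20 differing bases in capitals. It runs from base 943 to base 1092 of each coding sequence, 5′ to 3′, with an identity of 86.7%.
SERPINB3: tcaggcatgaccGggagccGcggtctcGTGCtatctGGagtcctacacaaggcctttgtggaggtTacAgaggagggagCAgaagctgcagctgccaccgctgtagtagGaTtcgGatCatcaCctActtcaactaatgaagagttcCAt
SERPINB4: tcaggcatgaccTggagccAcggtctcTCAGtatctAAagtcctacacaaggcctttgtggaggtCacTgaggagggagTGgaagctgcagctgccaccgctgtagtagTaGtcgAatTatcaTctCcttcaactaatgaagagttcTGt

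Upstream of their starts the copies were almost the same. The 250 bases before each start in RefSeq (GRCh38.p14, minus strand) are chr18:63661894-63662143 for SERPINB3 and chr18:63644257-63644506 for SERPINB4. They are shown because the genes moved in the same direction under each agent. The identity was 98.8%, with 3 differing bases in capitals. Counted from 1 at the 5′ end, with the base of SERPINB3 first, the differences are G126A, G201A and C228T.
SERPINB3: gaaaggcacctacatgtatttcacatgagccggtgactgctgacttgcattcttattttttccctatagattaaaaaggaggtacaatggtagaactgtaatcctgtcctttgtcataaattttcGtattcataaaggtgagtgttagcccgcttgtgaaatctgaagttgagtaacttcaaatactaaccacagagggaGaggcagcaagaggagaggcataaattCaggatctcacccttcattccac
SERPINB4: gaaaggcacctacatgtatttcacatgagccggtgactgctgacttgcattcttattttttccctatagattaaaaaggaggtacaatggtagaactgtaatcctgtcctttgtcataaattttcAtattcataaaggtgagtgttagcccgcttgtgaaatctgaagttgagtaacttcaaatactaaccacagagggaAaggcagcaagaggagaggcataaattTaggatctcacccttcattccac
The transcripts of GENCODE release 29 start 70 bases further upstream for SERPINB3 and 42 bases further upstream for SERPINB4, so the last bases of these stretches lie within those transcripts.

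SERPINB3 had 7.90 and 8.07 CPM in the chloroquine libraries, 0.736 and 0.665 CPM in the melatonin libraries, and 4.47 and 4.82 CPM in the untreated libraries. The chloroquine libraries were the highest and the melatonin libraries the lowest, the latter being what chose the gene. The share of all genes whose 3 groups separate in this way was not counted. The group means were 7.98 ± 0.127, 0.700 ± 0.0504 and 4.64 ± 0.241 CPM (SD, 2 libraries each). The chloroquine value was higher than the untreated one by 0.78 ± 0.17 (SE) on the log2 scale, a 1.72-fold difference with an adjusted p of 0.00123 by edgeR's quasi-likelihood test over all 16877 genes tested. Of those genes, 1610 (9.54%) were called higher with chloroquine and 1803 (10.7%) lower, at an adjusted p under 0.05. SERPINB3 was the 425th highest by chloroquine fold change. Without chloroquine library 2 the genes called in either direction numbered 1974 in place of 3413, and 2249 without chloroquine library 1.

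SERPINB4 had 9.09 and 8.70 CPM in the chloroquine libraries, 0.736 and 1.21 CPM in the melatonin libraries, and 5.52 and 5.53 CPM in the untreated libraries. The groups stood in the same order as for SERPINB3, and the low melatonin libraries again follow from the choice. The means were 8.89 ± 0.277, 0.972 ± 0.334 and 5.53 ± 0.0130 CPM (SD, 2 libraries each). With chloroquine SERPINB4 was higher by 0.69 ± 0.16 (SE) on the log2 scale, or 1.61-fold, with an adjusted p of 0.00279 by edgeR's quasi-likelihood test. This call and that of SERPINB3 held in all 16 alternative settings. The adjusted p rose as high as 0.0191 for SERPINB3 and 0.0360 for SERPINB4.

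In the melatonin libraries the counts of the copies were small, 18 and 11 reads for SERPINB3 and 18 and 20 reads for SERPINB4. Their log2 differences from untreated cells, −2.71 ± 0.25 and −2.56 ± 0.24 (SE), are therefore less precise than those with chloroquine. They correspond to 0.153-fold and 0.170-fold the untreated level and are given without a test, since these falls chose the genes. All of these counts stood above 3 reads, the limit that a count of 0 allows, which lay between 0.123 and 0.184 CPM across the libraries and covers counting error only.

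Because the copies can exchange reads, their counts were also summed. The sum was 17.0 and 16.8 CPM in the chloroquine libraries, 1.47 and 1.87 CPM in the melatonin libraries, and 9.99 and 10.4 CPM in the untreated libraries. The chloroquine libraries again lay above the untreated ones, and the melatonin libraries below. The sum was higher with chloroquine by 0.73 ± 0.12 (SE) on the log2 scale, a 1.66-fold difference with an adjusted p of 3.34e-05 by edgeR's quasi-likelihood test, and differed by −2.63 ± 0.17 with melatonin. A read assigned to the wrong copy does not alter this sum. Reads that the counting dropped because they map to both copies would be missing from it.

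The balance between the copies was near even in the chloroquine and untreated libraries, and less certain in the melatonin libraries. SERPINB3 took 46.5% (exact 95% binomial interval 41.1 to 51.9%) and 48.1% (42.6 to 53.7%) of the summed reads in the chloroquine libraries. The melatonin libraries gave 18 of 36 reads (32.9 to 67.1%) and 11 of 31 reads, or 35.5% (19.2 to 54.6%), and the untreated libraries 44.8% (37.0 to 52.8%) and 46.5% (39.2 to 53.9%). All 6 intervals overlapped, so no shift between the copies was seen at this depth, though overlap is not a test of equal shares. With 2 libraries a group an exact permutation test cannot reach 0.05. Per kilobase of transcript, which makes levels of different genes comparable, SERPINB3 stood at 4.49 CPM with chloroquine, 0.394 with melatonin and 2.61 in untreated cells, and SERPINB4 at 5.08, 0.556 and 3.16.

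**Figure D2:**
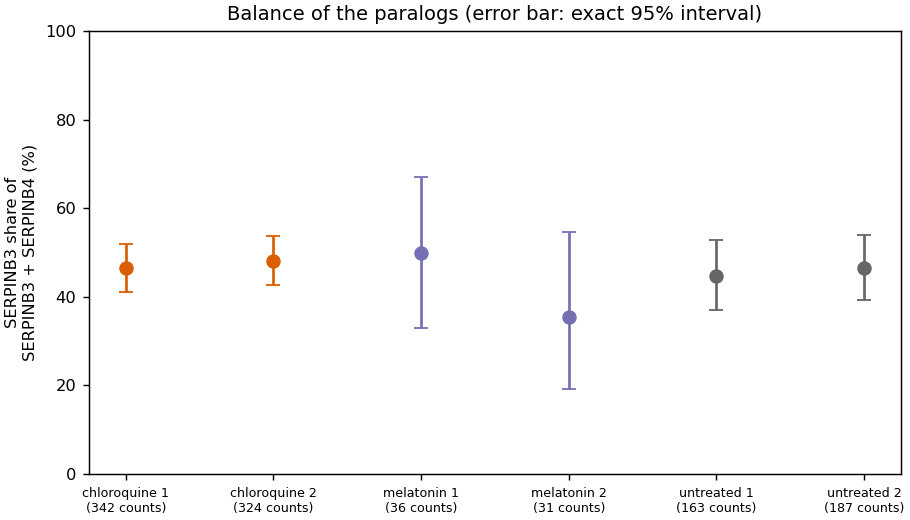
Share of SERPINB3 in the summed counts of SERPINB3 and SERPINB4 (vertical axis, percent) in each library, with the number of summed counts under each name. Error bars are exact 95% binomial intervals; the lowest share is 35.5%, in melatonin library 2, and the intervals are widest in the melatonin libraries, which have 36 and 31 counts.

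CASP14 (ENSG00000105141) lies at chr19:15049384-15058293 of GRCh38 on the plus strand. The 250 bases before its start in RefSeq (chr19:15049230-15049479, GRCh38.p14, plus strand) are shown beside those of the serpins because the 3 stretches were searched for the same motifs. Capitals mark the single match to TGANTCA, the motif of AP-1 factors, which are known to act in keratinocyte differentiation.
CASP14: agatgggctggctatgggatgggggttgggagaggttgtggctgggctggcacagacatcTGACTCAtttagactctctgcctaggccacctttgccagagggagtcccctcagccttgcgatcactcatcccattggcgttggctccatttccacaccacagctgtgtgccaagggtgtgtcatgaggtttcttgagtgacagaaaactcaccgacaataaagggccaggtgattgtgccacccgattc
The match begins at position −190 from the start. GENCODE release 29 starts this transcript 96 bases further upstream, so the match lies before both starts. On both strands of 35116 promoter stretches of this length, TGANTCA was found in 6.57%. The stretches of SERPINB3 and SERPINB4 held none. CACCC, the motif of KLF factors, was found once in each serpin stretch, at position −15, and 2 times in that of CASP14, against 54.7% of all stretches with a match. None of the 3 stretches held TTCNNNGAA (STAT factors), TATAAA (the TATA box) or ACGTG (hypoxia response), which 6.57%, 10.7% and 18.5% of all stretches did. Such matches describe letters, and say nothing of binding.

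CASP14 had 12.4 and 13.1 CPM in the chloroquine libraries, 1.92 and 2.54 CPM in the melatonin libraries, and 13.2 and 12.1 CPM in the untreated libraries. The chloroquine and untreated libraries overlapped, and the melatonin libraries, by which the gene was chosen, lay far below both. The means were 12.8 ± 0.482, 2.23 ± 0.436 and 12.7 ± 0.830 CPM (SD, 2 libraries each). The chloroquine difference was 0.01 ± 0.12 (SE) on the log2 scale with an adjusted p of 0.961 by edgeR's quasi-likelihood test. Its sign turned when chloroquine library 2 or untreated library 2 was left out, over a range of −0.05 to 0.08. The melatonin difference was −2.53 ± 0.16, or 0.173-fold, from 47 and 42 reads. Per kilobase of transcript CASP14 stood at 3.94 CPM with chloroquine, 0.688 with melatonin and 3.90 in untreated cells.

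LY6D (ENSG00000167656) lies at chr8:142784880-142786592 of GRCh38 on the minus strand. It had 8.89 and 7.25 CPM in the chloroquine libraries, 3.64 and 3.20 CPM in the melatonin libraries, and 17.0 and 17.8 CPM in the untreated libraries. Here the untreated libraries were the highest, and the melatonin libraries, by which the gene was chosen, the lowest. The means were 8.07 ± 1.16, 3.42 ± 0.308 and 17.4 ± 0.597 CPM (SD, 2 libraries each). LY6D fell with chloroquine by 1.11 ± 0.12 (SE) on the log2 scale, to 0.464-fold, with an adjusted p of 1.67e-07 by edgeR's quasi-likelihood test. By fold change it was the 129th lowest of the genes tested. The melatonin difference was −2.33 ± 0.14, or 0.199-fold. With 10.0 CPM per kilobase under chloroquine, 4.26 under melatonin and 21.6 in untreated cells, LY6D was the most abundant of the 4 transcripts per length in each group. Its transcript is the shortest, at 804 bases, and the richest in G and C, at 61.4%, against 39.7% for SERPINB3, 38.8% for SERPINB4 and 48.2% for CASP14. When trends with GC content and transcript length were taken out of every library, the chloroquine differences were −0.89 for LY6D, 0.68 for SERPINB3 and 0.58 for SERPINB4, and all 3 calls held.

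Ranked by melatonin fold change from the lowest of 16877 genes, SERPINB3 was 42nd, SERPINB4 55th, CASP14 59th and LY6D 89th. Of all genes tested, 4307 (25.5%) were called higher with melatonin and 4475 (26.5%) lower. The place of the 4 among the lower ones follows from how they were picked. In bulk RNA, fewer cells that express a gene and less RNA per cell cannot be told apart.

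**Figure D3:**
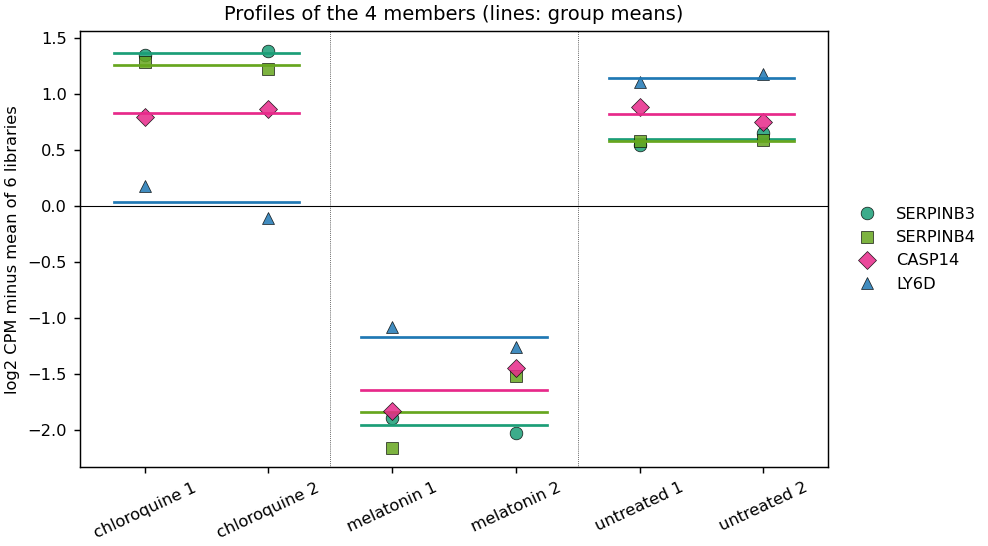
Level of each gene in each library as log2 CPM minus the gene's mean over the 6 libraries (vertical axis), with group means as lines. All 4 genes lie below 0 in the melatonin libraries, from −2.16 for SERPINB4 in library 1 to −1.08 for LY6D in library 1. In the chloroquine libraries SERPINB3 and SERPINB4 are above their untreated level, CASP14 beside it and LY6D below it.

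Across the 6 libraries, the profiles of SERPINB3 and SERPINB4 were the most alike, with a distance of 0.602 between their centred log2 CPM values. CASP14 was 0.779 from SERPINB4 and 1.02 from SERPINB3. LY6D stood farther off, at 1.47 from CASP14, 2.21 from SERPINB4 and 2.33 from SERPINB3. These distances describe 6 libraries in 3 groups, and the melatonin values in them chose the genes.

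Among 15046 other tested genes with a symbol, the nearest profile to both serpins was that of PDE2A, a phosphodiesterase of cyclic nucleotides, at 0.374 from SERPINB3 and 0.474 from SERPINB4. PDE2A averaged 147 CPM with chloroquine, 18.6 CPM with melatonin and 97.6 CPM in untreated cells. FLJ16779 (0.538) and RNLS, the flavoprotein renalase (0.965), followed for SERPINB3. In the melatonin libraries FLJ16779 had only 3 and 1 reads and RNLS 1 and 0, at or below the limit of 3 reads. RNLS had at most 11 reads in a library, so the nearness of its profile is uncertain. For SERPINB4 the next were FAP, a membrane-bound serine protease (0.677), and CP, the copper-carrying ferroxidase ceruloplasmin (0.955).

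FAP (0.205), CP (0.283) and ZBED10P (0.305) were the nearest to CASP14. CP averaged 46.0 CPM with chloroquine, 8.16 CPM with melatonin and 52.0 CPM in untreated cells, so it too was near its untreated level with chloroquine and well below it with melatonin. MYO1G, a class I myosin (0.213), PDGFRB, a receptor for platelet-derived growth factor (0.307), and KRT19, a keratin of simple and ductal epithelium (0.385), were nearest to LY6D. KRT19 averaged 4.99 CPM with chloroquine, 1.82 CPM with melatonin and 8.85 CPM in untreated cells. It shares with LY6D the order of the groups. For both CP and KRT19 such likeness follows from their choice as nearest profiles.

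Of 11 other genes of the serpin clade B, 5 could be tested; 1 rose and 3 fell with chloroquine, and 1 rose and 3 fell with melatonin. Over all genes tested 9.54% rose and 10.7% fell with chloroquine, and 25.5% rose and 26.5% fell with melatonin, and the counts of the lists that follow are read against these shares. SERPINB5 (maspin) had 42.1 ± 0.303 CPM with chloroquine, 40.2 ± 2.09 CPM with melatonin and 60.8 ± 2.61 CPM in untreated cells. It fell by 0.53 and 0.59 on the log2 scale, with adjusted p of 5.29e-07 and 8.21e-09 by edgeR's quasi-likelihood test. SERPINB1, an inhibitor of neutrophil proteases, fell by 0.27 and 0.22. SERPINB6, an intracellular inhibitor of serine proteases, averaged 239 CPM with chloroquine, 154 CPM with melatonin and 259 CPM in untreated cells. It fell by 0.11 with chloroquine (adjusted p of 0.0255, lost in 5 of 16 alternatives) and by 0.74 with melatonin. SERPINB8 rose under both agents, by 0.35 and 0.47. Median log2 differences of the clade were −0.12 with chloroquine and −0.22 with melatonin, against −0.00 and 0.01 over all genes tested.

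The proteases that SERPINB3 and SERPINB4 are known to inhibit took no common direction. Of 6 listed, 4 could be tested, of which 1 rose and 0 fell with chloroquine, and 2 rose and 2 fell with melatonin. CTSL (cathepsin L) averaged 74.5 CPM with chloroquine, 83.4 CPM with melatonin and 65.9 CPM in untreated cells, and rose by 0.18 and 0.34 on the log2 scale. The chloroquine call, with an adjusted p of 0.0225 by edgeR's quasi-likelihood test, was lost in 4 of 16 alternatives. CTSV (cathepsin V) rose by 0.59 with melatonin and had 0.00 with chloroquine. CTSS (cathepsin S), at 1.73 CPM with melatonin and 4.60 CPM in untreated cells, fell by 1.40 with melatonin, and CTSK (cathepsin K) by 0.49, a call lost with DESeq2 and without untreated library 2.

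No other tested caspase fell with melatonin. Of 11 others, 9 could be tested; 6 rose and 0 fell with melatonin, while 3 rose and 1 fell with chloroquine, and the medians were 0.26 and 0.04 on the log2 scale. Over all genes tested 25.5% rose and 26.5% fell with melatonin, and 9.54% and 10.7% with chloroquine, so the 1 caspase lower with chloroquine is near that share. CASP4, which senses bacterial lipopolysaccharide inside the cell, had 98.0 and 99.1 CPM in the chloroquine libraries, 96.3 and 93.7 CPM in the melatonin libraries, and 71.1 and 71.6 CPM in the untreated libraries, without overlap between treated and untreated. It rose by 0.46 and 0.41, with adjusted p of 1.92e-08 and 1.40e-08 by edgeR's quasi-likelihood test. The initiator caspases CASP8, CASP9 and CASP10 rose with melatonin by 0.37, 0.41 and 0.48. With chloroquine CASP8 rose by 0.25, a call lost in 2 of 16 alternatives, CASP9 fell by 0.29, a call lost in 6, and CASP10 had −0.11 with an adjusted p of 0.549.

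Of 27 other genes of the Ly6/uPAR family of LY6D, 12 could be tested, of which 0 rose and 3 fell with chloroquine, and 2 rose and 3 fell with melatonin. With melatonin these counts are no more than the shares over all genes tested, 25.5% higher and 26.5% lower, and with chloroquine those shares are 9.54% and 10.7%. Without untreated library 2 only 1 fell with chloroquine and 1 rose with melatonin, and without melatonin library 2 also only 1 rose with melatonin. PSCA (prostate stem cell antigen) had 16.2 and 12.8 CPM in the chloroquine libraries, 6.09 and 7.61 CPM in the melatonin libraries, and 18.5 and 21.3 CPM in the untreated libraries. Like LY6D, its untreated libraries were the highest and its melatonin libraries the lowest. PSCA fell by 0.46 with chloroquine and by 1.56 with melatonin on the log2 scale, with adjusted p of 0.00467 and 6.42e-11 by edgeR's quasi-likelihood test. The chloroquine call of PSCA was lost in 3 of 16 alternatives, with −0.23 after the GC and length trend was taken out. LY6E fell by 0.40 and 0.51. LY6K fell by 0.62 with melatonin and had −0.11 with chloroquine (adjusted p of 0.200), and LYPD6 rose by 0.66 with melatonin and had 0.06 with chloroquine. Medians of the family were −0.12 and −0.05.

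**Figure D4:**
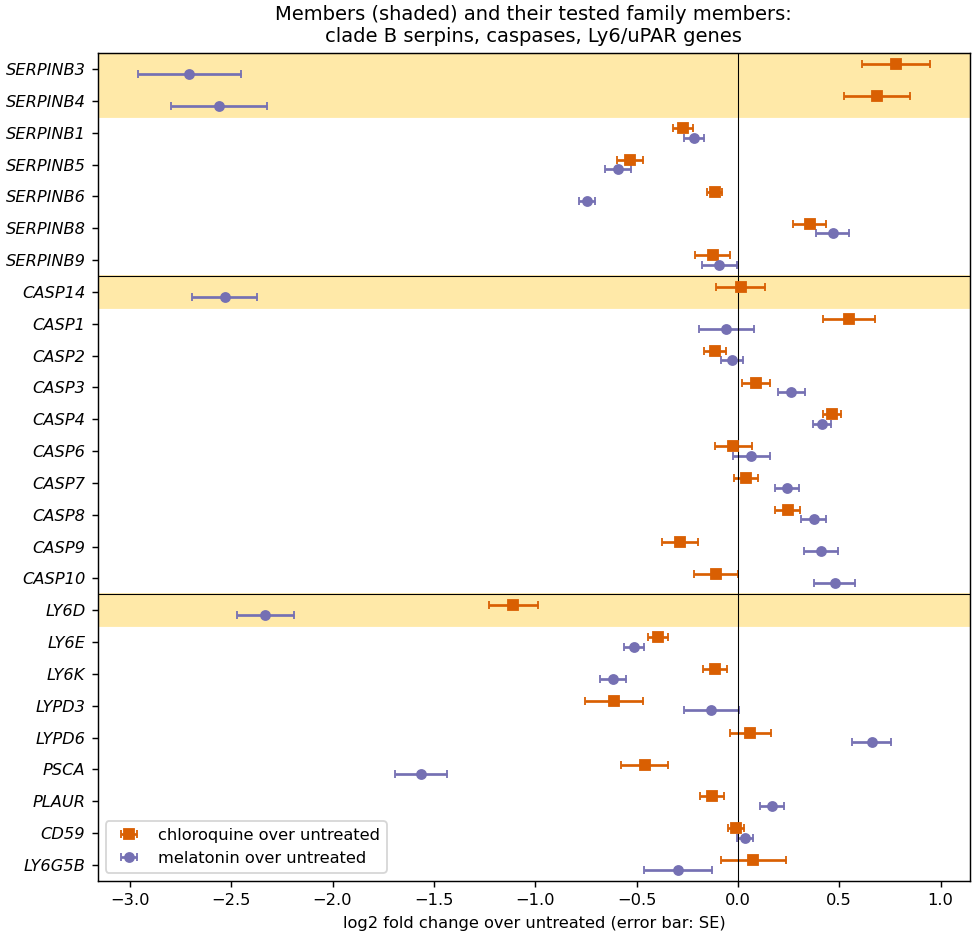
Log2 fold change over untreated cells (horizontal axis) of the 4 genes, shaded, and of their tested relatives among the clade B serpins, the caspases and the Ly6/uPAR genes, the last only where a group mean was over 5 CPM. Squares are chloroquine, circles melatonin, and error bars are SE; the relative with the lowest melatonin value is PSCA at −1.56, above the −2.33 of LY6D, and of the relatives plotted only PSCA lies below −1.

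Beside their own families, the genes were set against 7 lists of squamous biology, which cover the cornified envelope, the keratins of stratified epithelia, desmosomes, transcription factors, epidermal proteases, S100 and antimicrobial proteins, and the squamous mucosa. Most of this programme was hardly transcribed. Of 150 listed genes, 57 had 0 counts in every library, 104 stayed under 1 CPM in every library, and 50 could be tested.

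Of 10 defining markers of squamous epithelium, 8 stayed under 1 CPM in every library. IVL (involucrin) and KRT6A had 0 counts in all 6 libraries, and KRT5, KRT14, KRT13, KRT4 and DSG3 had between 1 and 9 counts over all 6. TP63, which encodes the p63 factor of basal squamous cells, had 22 counts over all libraries and at most 7 in one. SFN, an epithelial 14-3-3 protein, averaged 131 CPM with chloroquine, 75.4 CPM with melatonin and 149 CPM in untreated cells, and TRIM29 averaged 129, 91.4 and 173 CPM. Most defining markers thus go against a squamous identity of these cells, and the 4 genes are called squamous only for where they are best known.

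Markers of the labelled tissue were few as well. Of 20 hepatocyte markers, 19 stayed under 1 CPM in every library, and their summed level lay between 1.74 and 2.12 CPM with chloroquine, 0.846 and 1.47 CPM with melatonin and 2.76 and 2.77 CPM in untreated cells. HNF4A, a hepatocyte transcription factor, was the only one tested and fell by 2.06 on the log2 scale with melatonin. Keratins of ductal epithelium were readily detected: KRT7 averaged 775 CPM with chloroquine, 397 CPM with melatonin and 945 CPM in untreated cells. Of 9 ductal markers, 7 could be tested. With chloroquine 1 rose and 4 fell, and with melatonin 0 rose and 5 fell. Over all genes tested 9.54% rose and 10.7% fell with chloroquine, and 25.5% rose and 26.5% fell with melatonin. The 1 ductal marker higher with chloroquine is near its share. Sums of the ductal markers lay between 2285 and 2332 CPM, 1460 and 1523 CPM, and 2921 and 3033 CPM in chloroquine, melatonin and untreated libraries. Summed markers of fibroblasts lay between 19.2 and 27.0 CPM and those of leukocytes between 5.68 and 10.7 CPM over all libraries. The part of these markers in the levels of the 4 genes was not tested.

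Within the cornified envelope list, 8 of 37 genes could be tested. With chloroquine 0 were called by edgeR, DESeq2 or limma-voom, and 0 had an unadjusted p under 0.05 in edgeR. With melatonin 2 rose and 1 fell, near the 25.5% and 26.5% over all genes tested; the medians were −0.11 and −0.09 on the log2 scale. PPL (periplakin) averaged 117 CPM with chloroquine, 130 CPM with melatonin and 124 CPM in untreated cells, and was called in neither comparison. It was called higher with melatonin in 3 of 16 alternatives, by 0.27 after the GC and length trend was taken out, and lower with chloroquine in 1, by 0.16 without untreated library 2. SBSN (suprabasin) and CSTA (cystatin A) were the 2 that rose with melatonin, by 2.93 and 1.45, with levels under 1 CPM in every library. The call of CSTA, with an adjusted p of 0.0434 by edgeR's quasi-likelihood test, was lost in 9 of 16 alternatives, among them each of the 6 with a library left out. EVPL (envoplakin) fell by 0.25 with melatonin, a call that did not hold with library totals in place of TMM factors or after the GC and length trend was taken out.

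Of the stratified keratins, 5 of 23 could be tested, and 3 fell with each agent while 0 rose, against 10.7% of all genes tested lower with chloroquine and 26.5% with melatonin. KRT80 had 96.3 and 93.9 CPM in the chloroquine libraries, 57.4 and 56.0 CPM in the melatonin libraries, and 117 and 121 CPM in the untreated libraries, without overlap. It fell by 0.33 and 1.07 on the log2 scale, and KRT15, a basal keratin, by 0.74 and 1.08. KRT17 fell by 0.31 and 0.25, but had −0.11 and 0.07 after the GC and length trend was taken out, and neither was then called. Of 13 desmosome genes, 7 could be tested; 0 rose and 4 fell with chloroquine, and 1 rose and 6 fell with melatonin, with medians of −0.19 and −0.48. The plaque proteins PKP3 and JUP fell by 0.37 and 0.35 with chloroquine and by 1.18 and 0.56 with melatonin, and PERP by 0.19 and 0.48. The chloroquine call of PKP3 was lost after the GC and length trend was taken out.

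Of 24 transcription factors of squamous differentiation, 16 could be tested; 0 rose and 7 fell with chloroquine, and 5 rose and 7 fell with melatonin, with medians of −0.17 and −0.00. The 5 that rose with melatonin are near the 25.5% over all genes tested, while 26.5% fell; with chloroquine 9.54% rose and 10.7% fell. Without chloroquine library 2 only 4 fell with chloroquine, and without either untreated library only 3 rose with melatonin. ELF3, an epithelial ETS factor, had 88.2 and 89.6 CPM in the chloroquine libraries, 39.5 and 35.2 CPM in the melatonin libraries, and 123 and 117 CPM in the untreated libraries, without overlap. It fell by 0.44 and 1.68 on the log2 scale, with adjusted p of 1.50e-07 and 1.34e-19 by edgeR's quasi-likelihood test. PRDM1, a repressor active in terminal differentiation, fell by 0.50 and 1.38. KLF4, a factor needed for the skin barrier in the mouse, went the other way: it averaged 10.1 CPM with chloroquine, 24.7 CPM with melatonin and 9.09 CPM in untreated cells, rose by 1.44 with melatonin and had 0.15 with chloroquine (adjusted p of 0.447).

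In the 3 remaining lists no tested gene rose with chloroquine, which in lists this short is near the 9.54% over all genes tested. Among epidermal proteases and their inhibitors 1 of 5 tested genes fell with chloroquine, and with melatonin 1 rose and 1 fell, near the shares over all genes tested (10.7% lower with chloroquine, 25.5% higher and 26.5% lower with melatonin). With melatonin up to 2 rose and up to 3 fell when a library was left out. SPINK6, an inhibitor of kallikreins, averaged 184 CPM with chloroquine, 102 CPM with melatonin and 216 CPM in untreated cells, and fell by 0.23 and 1.08 on the log2 scale. Of the S100 and antimicrobial genes 5 could be tested; 3 fell with chloroquine and 4 with melatonin, with medians of −0.35 and −1.15. S100A16 averaged 106 CPM, 56.2 CPM and 135 CPM in chloroquine, melatonin and untreated cells and fell by 0.35 and 1.26, and S100A2 fell by 0.45 and 1.53. Without chloroquine library 2 or untreated library 2 the chloroquine call of S100A2 was lost, and only 1 gene of this list then fell with chloroquine. Among 4 tested genes of the squamous mucosa 3 fell with chloroquine, and with melatonin 1 rose and 2 fell. EMP1, a membrane protein of epithelia, was the one that did not keep its direction, falling by 0.33 with chloroquine and rising by 0.34 with melatonin. ANXA1 had 0.08 with melatonin (adjusted p of 0.0533 by edgeR's quasi-likelihood test). It was called higher with library totals or upper-quartile factors in place of TMM factors, with limma-voom and with robust dispersion. After the GC and length trend was taken out it had −0.03 and was not called.

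**Figure D5:**
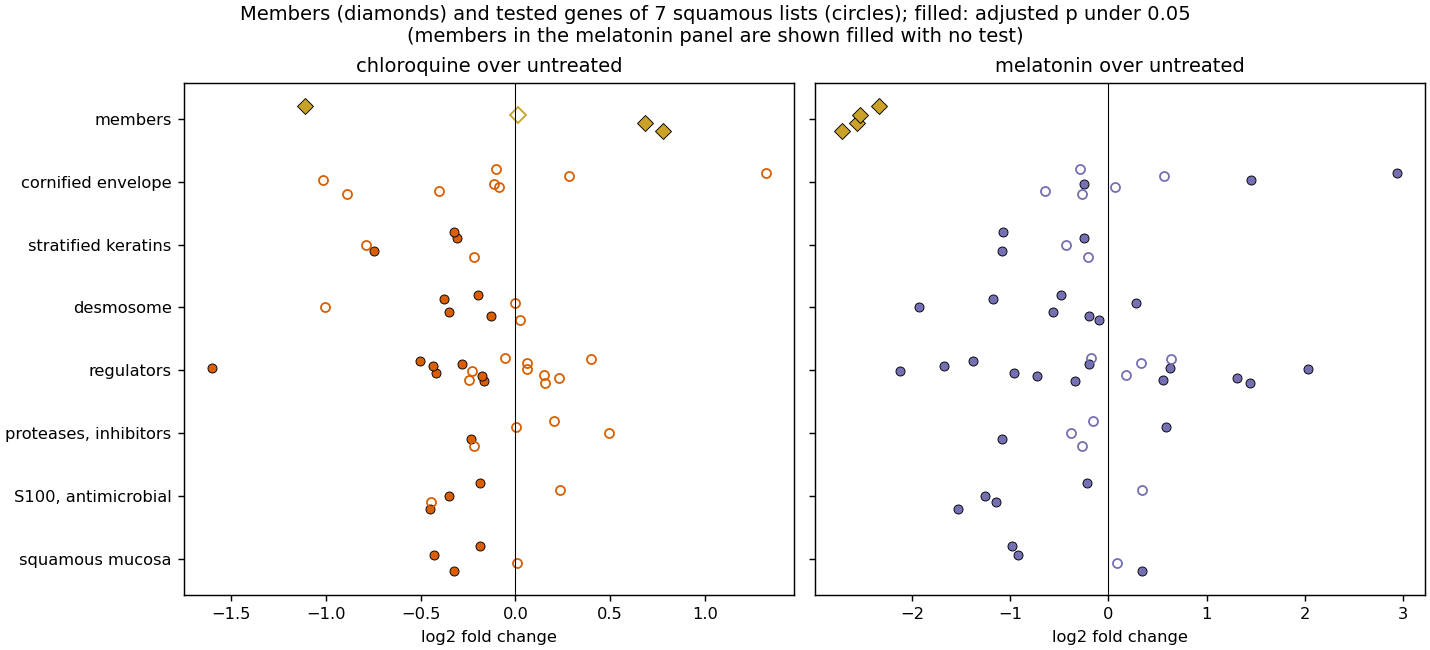
Log2 fold change over untreated cells (horizontal axes) with chloroquine (left) and melatonin (right) for the 4 genes (diamonds) and the tested genes of 7 squamous lists (circles), 1 row per list. Filled circles passed an adjusted p of 0.05; the 4 diamonds lie between −2.71 and −2.33 with melatonin, without a test, and between −1.11 and 0.78 with chloroquine.

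The other protein-coding genes nearest to SERPINB3 and SERPINB4 in the serpin cluster were almost silent. SERPINB11 and SERPINB12 had 0 counts in every library. SERPINB11 (chr18:63647579-63726432, plus strand) spans the whole of SERPINB3 on the opposite strand, and the strand setting of the counting is not given. SERPINB13 had 3 and 1 counts in the chloroquine libraries, 3 and 0 in the melatonin libraries, and 0 and 2 in the untreated libraries. SERPINB7 had 10 and 4 counts in the chloroquine libraries, 4 and 3 in the melatonin libraries, and 2 and 4 in the untreated libraries. SERPINB2 had at most 5 counts in a library, and none of these genes could be tested. Farther off on chromosome 18, SERPINB5 and SERPINB8 were expressed, averaging 60.8 and 21.9 CPM in untreated cells. Around CASP14, SYDE1, 49110 bases away, was the only tested neighbour and fell by 0.30 with chloroquine and by 1.46 with melatonin on the log2 scale. Beside LY6D, LYNX1, 7070 bases away and of the same family, had −0.29 with chloroquine and 0.03 with melatonin, with adjusted p of 0.718 and 0.965 by edgeR's quasi-likelihood test.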

How the data were processed

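Polyadenylated RNA of 6 libraries in 3 groups was analysed from the whole-number read counts per Ensembl gene that the authors deposited. Per the submitters' processing notes, reads were trimmed with fastp and mapped to GRCh38. The sources used here do not give the aligner, the annotation, the strand setting or the handling of multiply mapped reads. Of 62710 genes, 62639 had a symbol and 58274 were found in GENCODE release 29, the source of coordinates, length and GC content. Promoter stretches are from RefSeq.

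Counts were analysed with edgeR 4.0.16 in R 4.3.3. After filterByExpr, 16877 genes remained, which were scaled by TMM factors and fitted with glmQLFit over all 6 libraries, with 1 term per group. Chloroquine and melatonin were each compared with untreated by glmQLFTest, with Benjamini-Hochberg adjustment over all tested genes and calls at 0.05. The SE was taken from the F statistic. The steps were run on simulated data, whose outcome is not given here. Changes were set only in genes above a floor on untreated CPM that left out SERPINB3, with the same dispersion for all genes. Alternatives used limma 3.58.1 and DESeq2 1.42.0, other scalings, filters and dispersions, GC and length offsets, a replicate block, a fit of the 2 groups compared, and each library left out.

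The members and the 15 gene lists (250 genes) were chosen with earlier results of these data known. Named from each list were up to 4 tested genes with the smallest p in either comparison, and genes over 100 CPM in untreated cells. For likeness, the 3 genes nearest by Euclidean distance of centred log2 CPM (prior count 2) were named, and for position the neighbouring protein-coding genes. Within chloroquine, melatonin and untreated, the libraries differed beyond counting error (chi-square over its degrees of freedom 1.83, 2.66 and 2.36). Deviations of equally numbered libraries were not correlated between groups, so no pairing was used.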

Additional observations from a re-analysis of the deposited data

How the results depend on the processing

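The calls of SERPINB3, SERPINB4, their sum and LY6D with chloroquine held under all 16 alternatives. Log2 differences ranged from 0.68 to 0.83 for SERPINB3, from 0.58 to 0.72 for SERPINB4, from 0.63 to 0.76 for the sum and from −1.26 to −0.89 for LY6D. CASP14 was called in none of the 16; it ranged from −0.054 to 0.082 with a library left out, and was −0.023 without chloroquine library 2. With melatonin, SERPINB3 ranged from −2.80 to −2.61, SERPINB4 from −2.90 to −2.18, CASP14 from −2.72 to −2.31 and LY6D from −2.44 to −1.95, the last with GC and length offsets. The genes called with chloroquine in either direction numbered 3413, against 2025 with DESeq2, 1808 with the offsets and 1974 to 3732 with a library left out, where the highest numbers came without a melatonin library; the cause was not tested. With library totals in place of TMM factors, the median of all genes with melatonin moved to 0.10, and 5541 genes were called higher and 3434 lower, against 4307 and 4475.

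With the replicate number as a block, 3436 genes were called with chloroquine and LY6D was at −1.11, and no call of the 4 genes changed. Correlations of deviations between equally numbered libraries were 0.00161, −0.0140 and −0.00692, so no pairing was assumed.

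Of 57 named list genes, 34 were called with chloroquine and 19 of these kept the call under every alternative; with melatonin 41 of 50 did. Among named genes called with or without the GC and length offsets, the offsets turned the sign of SFN with chloroquine (0.037). With melatonin they turned that of CD59 (−0.10), EVPL (0.13), KRT17 (0.067) and SLPI (0.0090). Signs of some genes called in neither fit also turned, among them PPL (0.067) and ANXA1 (−0.095) with chloroquine. Depth limits the melatonin values of the serpins, which rest on 11 to 20 counts.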
